A study of Danio rerio with 20 samples.

Results

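Which genes of the photoreceptor's light response and outer segment were on, and which were still off, was read in the zebrafish retina at 42 hours post fertilization (hpf). The set held 8 of the 32520 Ensembl genes of the count table. They were rcvrna, its paralog on chromosome 16 (called rcvrn2 here), gnat2, arr3a, tulp1a, rbp4l, rs1a and prph2lb. They were picked from these same libraries, so their levels and their differences between groups are given as descriptions, without a test.

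The animals carried 3 fluorescent reporters, Tg(ath5:gap-RFP) in red, Tg(crx:gap-CFP) in cyan and Tg(ptf1a:gal4,UAS:gap-YFP), and all 4 groups came from that line. Photoreceptors were sorted as ath5+,crx+,ptf1a-, retinal ganglion cells as ath5+,crx-,ptf1a-, amacrine and horizontal cells as ath5+,crx-,ptf1a+, and progenitors as cells without any of the 3 reporters. Each group had 5 libraries, each made from 500 sorted cells by SmartSeq-2 amplification of polyadenylated RNA, and 25 retinas were pooled for each replicate. The shorter names ganglion cells and amacrine/horizontal cells are used below for the middle groups. The groups are reporter gates at a single age: a cell is named by the reporters it held, and the progenitor gate takes any reporter-negative cell of the dissected retina.

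Vertebrate photoreceptors catch light with opsins, which activate the G protein transducin. Transducin relieves the inhibitory subunit of a cGMP phosphodiesterase, cGMP falls, and cyclic nucleotide-gated channels close. Recoverin, arrestin, opsin kinases and RGS9 shape the end of the response. The proteins sit in the outer segment, a modified cilium whose stacked membrane is held in shape by tetraspanins of the peripherin family, and the chromophore is supplied by enzymes and carriers of retinoids.

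The labels were set against marker lists. Summed over 10 photoreceptor markers (crx, neurod1 and nr2e3 among them), levels in counts per 1000000 of the scaled library total (CPM) ran from 6739 to 8719 in photoreceptor libraries, against 2611 to 2975 in ganglion, 1874 to 2422 in amacrine/horizontal, and 588 to 938 in progenitor libraries. Not every marker on that list was highest in photoreceptors: tbx2b averaged 315 CPM there and 463 CPM in ganglion cells, and rorb averaged 190.5 CPM there and 394.5 CPM in amacrine/horizontal cells (log2 difference -1.05, SE 0.31, adjusted p 0.0372, edgeR). The crx transcript itself averaged 1278 ± 395 CPM in photoreceptors, and it was still at 387 ± 64.0 CPM in ganglion cells, 579 ± 87.6 CPM in amacrine/horizontal cells and 46.1 ± 30.1 CPM in progenitors (SD, n = 5 each). The 11 ganglion markers summed to 217 to 1752 CPM in photoreceptor, 2670 to 5768 CPM in ganglion, 2498 to 7991 CPM in amacrine/horizontal and 610 to 1224 CPM in progenitor libraries. On this list the ganglion gate overlapped the amacrine/horizontal gate, and isl2b, rbpms2a, elavl3 and stmn2b averaged higher in the amacrine/horizontal gate. The 12 amacrine/horizontal markers set these gates apart, at 2486 to 3099 CPM in amacrine/horizontal and 820 to 1305 CPM in ganglion libraries. They summed to 149 to 254 CPM in photoreceptor and 399 to 593 CPM in progenitor libraries. The 10 bipolar markers were also highest in the amacrine/horizontal gate, at 1830 to 3018 CPM. Their sum was 904.5 to 1792 CPM in ganglion, 339 to 579 CPM in photoreceptor and 219 to 397 CPM in progenitor libraries. In the amacrine/horizontal gate 4 of them averaged at least 10 CPM, and 4 stayed at 3 counts or less in every library. Progenitor markers did not set the progenitor gate apart from photoreceptors: 9 of them summed to 6837 to 7540 CPM in photoreceptor libraries and to 6566 to 7482 CPM in progenitor libraries. Pigment epithelium markers reached 453.9 CPM in 1 progenitor library, and at most 10.5 CPM in photoreceptor libraries. Of 6 pineal markers, 2 stayed at 3 counts or less in every photoreceptor library, while the summed level ran from 1.44 to 89.6 CPM there. The highest library had 89.4 CPM of aanat2 and the lowest had none. This is a melatonin-synthesis gene that pineal and retinal photoreceptors share. Library totals ran from 21.2 to 30.8 M (1000000 counts), and amacrine/horizontal replicate 1 stood apart with a scaling factor of 0.68 (0.864 to 1.12 in the others) and the fewest genes detected, 12531.

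A gene was called on in a group when it averaged at least 10 CPM and had more than 3 counts in each of the 5 libraries, and off when no library had more than 3 counts. In photoreceptors, 4 of the 8 genes were on (rcvrna, rcvrn2, tulp1a and rbp4l), 2 lay in between (rs1a and prph2lb) and 2 were off (gnat2 and arr3a). None of the 8 was on in the other groups by this rule. In amacrine/horizontal cells tulp1a averaged 13.7 CPM and missed the rule through replicate 1 alone, which had 1 count. Without that library its mean was 17.2 CPM. With the limit at 1 CPM, 5 were on in photoreceptors, and with the limit at 50 CPM, 3 were on. The limit of 1 CPM was also met in ganglion cells by rcvrn2 (5.19 CPM), tulp1a (9.33 CPM) and rbp4l (1.30 CPM), each with more than 3 counts in every library. In 5 of the 8, every photoreceptor library lay above all 15 other libraries, a pattern that 1.89% of the 13838 genes kept for testing also had. Taken group by group, every photoreceptor library lay above every library of ganglion cells in 5.02%, of amacrine/horizontal cells in 6.2% and of progenitors in 6.49% of these genes. The 8 genes were chosen with these levels in view, so nothing is read from their count. A total of 6 of the 8 passed the filter on low counts, all but gnat2 and arr3a. In sorted bulk libraries, fewer cells expressing a gene and less RNA in each cell cannot be told apart.

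**Figure D1:**
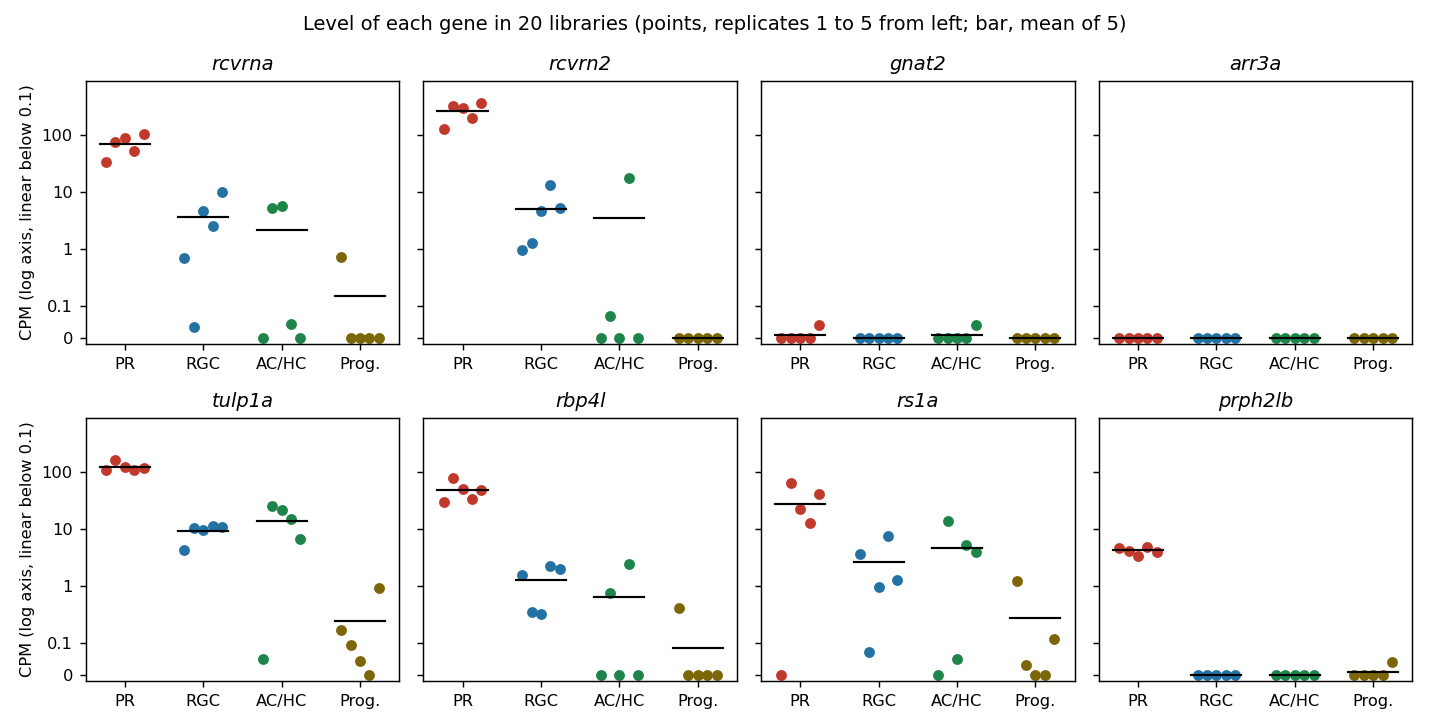
Level of each of the 8 genes in the 20 libraries, in CPM on a log axis that is linear below 0.1, for photoreceptors (PR), retinal ganglion cells (RGC), amacrine/horizontal cells (AC/HC) and progenitors (Prog.); points are libraries and bars are means of 5. The photoreceptor points of rcvrna, rcvrn2, tulp1a, rbp4l and prph2lb lie above all others, rs1a has 1 photoreceptor library at 0, and gnat2 and arr3a lie at or next to 0 throughout.

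The transducin gene of the set, gnat2 (ENSDARG00000042529, GRCz11 chromosome 8, 25225590 to 25247284, 9 merged exons), encodes the cone alpha subunit, the part of the G protein that carries the signal from opsin. It had 1 count in photoreceptor replicate 5 and 1 count in amacrine/horizontal replicate 5, and 0 counts in the remaining libraries. A count of 0 allows a level of up to 0.10 to 0.149 CPM in each of the 4 photoreceptor libraries without a count, where counting error is the only error covered. The gene shares exon positions with AMPD2 in the annotation, and reads over both genes were left out of the counts. Among 23147 genes with a count in photoreceptors, 4.00% lay below gnat2 in level per kilobase of exon.

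Arrestin binds phosphorylated opsin and ends its signal, and arr3a (ENSDARG00000056511, chromosome 10, 26800213 to 26811397, 16 exons) is one of the zebrafish cone arrestin genes. It had 0 counts in all 20 libraries. A count of 0 allows up to 0.0236 CPM over the 5 photoreceptor libraries together and at most 0.149 CPM in any single library. These limits cover counting error alone.

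Both recoverins were on. Recoverin is a calcium sensor that, at high calcium, holds back the kinase that phosphorylates opsin. The level of rcvrna (ENSDARG00000052223, chromosome 3, 50441444 to 50443607, 3 exons) was 33.5, 77.9, 90.6, 52.2 and 103.9 CPM in photoreceptor replicates 1 to 5. It was 0.706, 0.0355, 4.62, 2.61 and 10.3 CPM in ganglion cells, 0, 5.25, 5.78, 0.0432 and 0 CPM in amacrine/horizontal cells, and 0.746 CPM in progenitor replicate 1 with 0 in the other progenitor libraries. No other group reached the photoreceptor range: the lowest photoreceptor library was 3.24 times the highest ganglion library. The mean of 71.6 ± 28.6 CPM in photoreceptors was 19.6 times that of ganglion cells (3.66 ± 4.13 CPM) and 32.3 times that of amacrine/horizontal cells (2.22 ± 3.02 CPM; SD, n = 5 each). The second ratio was 49.2 without amacrine/horizontal replicate 2 and 54.1 without replicate 3. Ganglion replicate 5 held most of the signal of its group, and without it the first ratio was 35.9. Against progenitors the ratio of 480 rests on replicate 1 of that group alone.

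The other recoverin (ENSDARG00000019902, chromosome 16, 13911692 to 13921589, 3 exons) is listed under the symbol RCVRN in the names table, and RefSeq places rcvrn2 on that chromosome, the name used here. Its levels were 128.7, 325.0, 308.7, 199.2 and 364.2 CPM in photoreceptors, and 0.989, 1.28, 4.70, 13.6 and 5.38 CPM in ganglion cells. In amacrine/horizontal cells it was 17.9 CPM in replicate 4, 0.0705 CPM in replicate 2 and 0 in the other 3, and it had 0 counts in all 5 progenitor libraries. Photoreceptors lay above every other library, at a mean of 265 ± 97.8 CPM, against 5.19 ± 5.10 CPM in ganglion cells and 3.59 ± 7.98 CPM in amacrine/horizontal cells (SD, n = 5 each). These are ratios of 51.1 and 73.9, and the second depends on replicate 4: without it, the amacrine/horizontal mean was 0.0176 CPM. The first ratio was 85.9 without ganglion replicate 4. Against progenitors the gene was at least 2050-fold higher, taking 3 counts in the shallowest progenitor library as the floor.

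The paralogs were also set against each other within each library. Per kilobase of exon, rcvrn2 was 1.87 to 2.29 times as high as rcvrna in the 5 photoreceptor libraries. In the 4 ganglion libraries where both had more than 3 counts, the same ratio was 0.769 in replicate 1, 0.559 in replicate 3, 2.86 in replicate 4 and 0.286 in replicate 5, so rcvrna was the higher of the pair in 3 of 4. Ganglion replicate 2, left out by that limit, went the other way. It had 36 counts of rcvrn2 and 1 of rcvrna (0.621 and 0.0314 CPM per kilobase), so neither paralog led throughout the group. In amacrine/horizontal cells no library had both above 3 counts: replicates 2 and 3 had rcvrna and replicate 4 had rcvrn2. These ratios rest on 20 to 297 counts per gene in the ganglion libraries, against 672 to 9738 in photoreceptors.

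Among outer segment and adhesion genes, tulp1a was on, rs1a and prph2lb in between. TULP1 is needed in mouse photoreceptors to bring proteins such as rhodopsin to the outer segment. The level of tulp1a (ENSDARG00000075295, chromosome 23, 5465806 to 5498539, 17 exons) was 110.6, 161.2, 124.6, 108.6 and 118.2 CPM in photoreceptors. It was 4.31, 10.6, 9.60, 11.4 and 10.8 CPM in ganglion cells, 0.0478, 25.3, 21.9, 14.8 and 6.56 CPM in amacrine/horizontal cells, and 0.166, 0.0932, 0.0417, 0 and 0.932 CPM in progenitors. Photoreceptors lay above all other libraries, and all 5 ganglion libraries had the transcript. Mean levels were 125 ± 21.4 CPM in photoreceptors, against 9.33 ± 2.88 CPM in ganglion cells, 13.7 ± 10.5 CPM in amacrine/horizontal cells and 0.247 ± 0.388 CPM in progenitors (SD, n = 5 each), ratios of 13.4, 9.08 and 505.5. Without amacrine/horizontal replicate 1 the ratio to that group was 7.27. Without progenitor replicate 5 the ratio to progenitors was 1658.

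Retinoschisin, the product of rs1a (ENSDARG00000027236, chromosome 11, 30244356 to 30252098, 6 exons), is a secreted adhesion protein that photoreceptors and bipolar cells release and that holds the retinal layers together. The level of rs1a was 0, 63.1, 22.7, 12.9 and 40.5 CPM in photoreceptors. It was 3.64, 0.0711, 0.956, 7.42 and 1.25 CPM in ganglion cells, 0, 13.8, 0.0494, 5.18 and 3.98 CPM in amacrine/horizontal cells, and 1.202, 0.0311, 0, 0 and 0.117 CPM in progenitors. The groups overlapped, with no count in photoreceptor replicate 1, and without that library photoreceptors (34.8 ± 22.1 CPM, n = 4) still overlapped amacrine/horizontal cells, where replicate 2 exceeded photoreceptor replicate 4. With all libraries the photoreceptor mean was 27.8 ± 24.6 CPM, 10.4 times that of ganglion cells (2.67 ± 2.97 CPM) and 6.05 times that of amacrine/horizontal cells (4.60 ± 5.63 CPM; SD, n = 5 each). Without ganglion replicate 4 the first ratio was 18.8, and without amacrine/horizontal replicate 2 the second was 12.1. Against progenitors the ratio of 103 depends on replicate 1 of that group, without which no progenitor library was above 3 counts.

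A peripherin-like tetraspanin is encoded by prph2lb (ENSDARG00000021345, chromosome 20, 27384138 to 27390258, 3 exons), a relative of the protein that bends the disc rims. It was low and steady in photoreceptors, at 4.58, 4.17, 3.42, 4.93 and 4.00 CPM, which were 92, 125, 82, 144 and 96 counts. Ganglion cells and amacrine/horizontal cells had 0 counts in every library, and progenitors had 1 count, in replicate 5. The photoreceptor mean of 4.22 ± 0.574 CPM (SD, n = 5) was at least 30.7-fold higher than in ganglion cells and at least 28.5-fold higher than in amacrine/horizontal cells, with 3 counts in the shallowest library of each group as the floor. Its level relative to the mean varied least of the set, with a coefficient of variation of 13.6% over the photoreceptor libraries. The coefficient was 17.2% for tulp1a, 36.9% for rcvrn2, 39.6% for rbp4l, 40.0% for rcvrna and 88.5% for rs1a.

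The retinoid carrier of the set was on. Purpurin, the product of rbp4l (ENSDARG00000044684, chromosome 21, 20338613 to 20342096, 6 exons), is a secreted retinol-binding protein first described in chick retina. Its level was 29.7, 78.3, 50.01, 34.3 and 47.6 CPM in photoreceptors. It was 1.59, 0.355, 0.319, 2.2 and 2.03 CPM in ganglion cells, 0.740 CPM in amacrine/horizontal replicate 2, 2.42 CPM in replicate 4 and 0 in the other 3, and 0.415 CPM in progenitor replicate 1 with 0 in the other 4. Photoreceptors again lay above all other libraries. Their mean of 48.0 ± 19 CPM was 37.0 times that of ganglion cells (1.30 ± 0.905 CPM; SD, n = 5 each) and 76.0 times that of amacrine/horizontal cells (0.631 CPM), which became 259 without amacrine/horizontal replicate 4. The ratio to progenitors, 579, rests on replicate 1 of that group. The gene overlaps si:dkey-30k6.7 in the annotation, so reads over both were not counted.

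Scaled to exon length, the order of mean levels in photoreceptors was rcvrn2 (128.8 CPM per kilobase), rcvrna (63.3), rbp4l (24.1), tulp1a (22.8), rs1a (20.3) and prph2lb (2.16). Both recoverins kept their places in 5 of 5 libraries. Neighbours further down did not hold a fixed order, since rbp4l exceeded tulp1a in 3 of 5 libraries and rs1a exceeded tulp1a in 2 of 5. Of all genes detected in photoreceptors, 97.3% had a lower level per kilobase than rcvrn2, 94.6% than rcvrna, 88.8% than rbp4l, 88.3% than tulp1a, 87.4% than rs1a and 64.3% than prph2lb. Photoreceptor replicate 1 was the lowest of the 5 libraries for 3 of the 4 genes that were on, and replicate 4 for tulp1a. Replicate 1 also had the fewest genes detected of the photoreceptor libraries, 14070, where the most was 17926, and the part of detection in these levels was not tested.

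**Figure D2:**
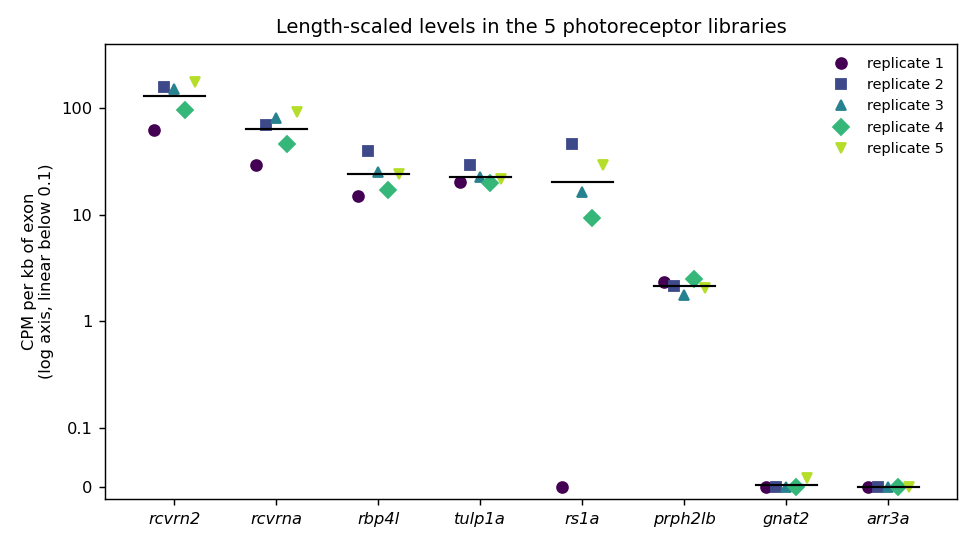
Level per kilobase of exon of the 8 genes in the 5 photoreceptor libraries (CPM per kb, log axis that is linear below 0.1; symbols are replicates, bars are means of 5). The recoverins lead in every library, the levels of rbp4l, tulp1a and rs1a interleave, rs1a has replicate 1 at 0, and prph2lb sits near 2 with little spread.

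Outside photoreceptors, 5 of the 8 genes were set against crx, the gene behind the photoreceptor reporter. The crx transcript stood at 30.3% of its photoreceptor mean in ganglion cells and at 45.3% in amacrine/horizontal cells, while the means of the 5 genes detected there were 1.96% (rcvrn2) to 9.59% (rs1a) of their photoreceptor means in ganglion cells and 1.32% (rbp4l) to 16.5% (rs1a) in amacrine/horizontal cells. A larger drop than that of crx was not particular to these genes. The marker prdm1a averaged 465.6, 49.4 and 41.1 CPM in photoreceptors, ganglion cells and amacrine/horizontal cells, and syt5b averaged 74.2, 4.36 and 6.09 CPM. In the same order neurod1 lay nearer to crx, at 2008, 650.4 and 505.2 CPM, and rorb rose, at 190.5, 279.1 and 394.5 CPM. Amacrine/horizontal replicate 1 had none of the 8 genes above 3 counts, yet it kept crx. Replicates 2 and 4 of that group each had 4 of the 8 above 3 counts, and replicates 3 and 5 had 2. In ganglion cells 5 of the 8 passed 3 counts in replicates 1, 3, 4 and 5, and 3 of the 8 in replicate 2. Among progenitors, replicate 1 had 4 of the 8 above 3 counts, replicate 5 had 1, and replicates 2, 3 and 4 had none.

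**Figure D3:**
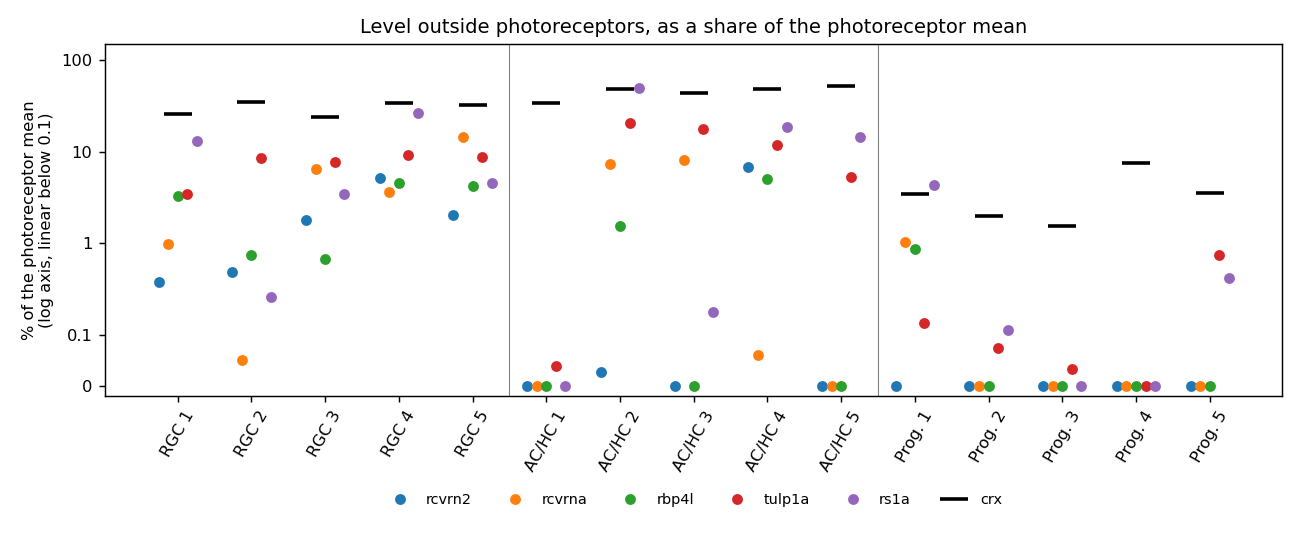
Level of 5 of the genes and of crx in each library outside photoreceptors, as a percentage of the photoreceptor mean (log axis, linear below 0.1; RGC, retinal ganglion cells; AC/HC, amacrine/horizontal cells; Prog., progenitors). The crx bars keep a similar height over the RGC and AC/HC libraries, while the points of the genes spread over more than an order of magnitude and drop to 0 in single AC/HC libraries.

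Over the 20 libraries the 4 genes that were on varied together, with Pearson correlations of log2(CPM + 1) from 0.855 for tulp1a and rbp4l to 0.972 for rcvrn2 and rbp4l. The points share 4 groups, so each correlation includes the difference between photoreceptors and the rest, and it is given as a description. By the same measure, the genes most like rcvrna were TMX3 (0.951), EML5 (0.936) and h2ax (0.933). For rcvrn2 they were arl13a (0.959), zgc:109965 (0.942) and zgc:112294 (0.942). For rbp4l they were si:ch1073-469d17.2 (0.956), arl13a again (0.954) and zgc:194621 (0.953). For tulp1a they were GNGT2 (0.960), ly6pge (0.957) and ppdpfa (0.956). Of these, arl13a averaged 31.6 CPM in photoreceptors, against 0.440, 0.924 and 0.00862 CPM in ganglion cells, amacrine/horizontal cells and progenitors in that order.

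The remaining genes of the pathway were taken from a list by role, of which 82 beside the 8 were matched in the table. In photoreceptors 9 of the 82 were on, 42 lay in between and 31 were off. Of the 9, gnb1a, gnb1b and pde6d were on in every group by the same rule. Also on elsewhere were pde6gb, in ganglion and amacrine/horizontal cells, and unc119b, in ganglion cells and progenitors. The share of all genes on by this rule was not taken, so nothing is read from the 9. The filter on low counts kept 26 of the 82, which were tested. By edgeR's quasi-likelihood test with Benjamini-Hochberg adjustment over all 13838 genes, 2 list genes were higher in photoreceptors than in ganglion cells, where 0.838% of all genes were. Against amacrine/horizontal cells 3 were higher (4.77% of all genes), and against progenitors 4 were higher (3.14%) and 1 lower (2.05%). None was lower in photoreceptors than in ganglion cells (1.27% of all genes were) or amacrine/horizontal cells (3.94%) by edgeR, DESeq2 or limma voom, and at an unadjusted p under 0.05 edgeR gave 2 and 3 lower. The median log2 difference of the 26 was 1.36, 0.84 and 2.90 against ganglion cells, amacrine/horizontal cells and progenitors, beside -0.01, 0.04 and 0.02 for all genes. With genes that a group had at 3 counts or less in every library set to the bound that this floor gives, the medians were 1.36, 0.84 and 2.36. The filter can keep a gene through 1 group alone, photoreceptors included. These counts and medians thus describe the 26 tested genes and not the 56 list genes left out. The 3 comparisons share the 5 photoreceptor libraries. Counts changed when single libraries were left out. Against ganglion cells, 0 list genes passed without photoreceptor replicate 3, 4 or 5 (7 at an unadjusted p under 0.05 in each case) and 8 without amacrine/horizontal replicate 1. In that last fit the filter changed too, and 30 list genes were tested against 26. Among the 8 were abca4b, gnat1, prph2la and rcvrnb, which the filter of the main fit had left out. These had at most 2 counts in any library outside photoreceptors. Such genes passed the filter through photoreceptors alone, so no support is read from them.

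Of the list, pde6gb alone passed against all 3 groups in this fit, as did 57 of all 13838 genes (0.412%). It did not without photoreceptor replicate 3, 4 or 5, where the count was 0. Without amacrine/horizontal replicate 1 the count was 7, among them abca4b, gnat1, prph2la and rcvrnb, which the main fit had left out. The gene pde6gb encodes the gamma subunit that inhibits the phosphodiesterase until transducin binds. Its levels were 1449, 1623, 1419, 1615 and 1515 CPM in photoreceptors. They were 124 to 366 CPM in ganglion cells, 160 to 571 CPM in amacrine/horizontal cells and 0.0417 to 19.7 CPM in progenitors, so every photoreceptor library lay above every other. The log2 difference was 2.75 against ganglion cells (SE 0.68, adjusted p 0.0327), 2.13 against amacrine/horizontal cells (SE 0.66, adjusted p 0.0491) and 7.60 against progenitors (SE 0.85, adjusted p 7.6e-06; edgeR). The amacrine/horizontal difference missed the threshold in 18 of 28 alternatives, among them the fits without any 1 photoreceptor or ganglion library, those without amacrine/horizontal replicate 2, 3, 4 or 5, and those without progenitor replicate 1 or 2. It ran from 1.98 to 2.37 over all single-library fits. The ganglion difference (2.60 to 3.0 over these fits) missed it without photoreceptor replicate 2, 3, 4 or 5 or ganglion replicate 1, 2, 3 or 5.

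Of the catalytic subunit genes, pde6b and pde6c were read and pde6a was not analysed here. The rod gene pde6b averaged 0.349 ± 0.779 CPM in photoreceptors, where counts above 3 came from replicate 1 alone, at a log2(CPM + 1) of 1.456. It was also found in progenitor replicates 1, 2 and 5, at 0.542, 0.39 and 0.797 on that scale. The cone gene pde6c had at most 4 counts in any library. Per kilobase of exon, pde6gb stood at 894.5 CPM in photoreceptors and pde6b at 0.0623 CPM. The prenyl-binding protein gene pde6d, whose product carries lipid-modified proteins to the cilium and is expressed well beyond the retina, averaged 154 ± 26.6 CPM in photoreceptors, against 80.3 ± 12.3 CPM in ganglion cells, 98.2 ± 35.7 CPM in amacrine/horizontal cells and 52.1 ± 7.40 CPM in progenitors (SD, n = 5 each). Photoreceptors exceeded progenitors in pde6d by a log2 difference of 1.57 (SE 0.24, adjusted p 0.000365) and ganglion cells by one of 0.94 (SE 0.24, adjusted p 0.0408; edgeR). The last difference missed the threshold in 14 of 28 alternatives, including each fit without photoreceptor replicate 2, 3, 4 or 5, without any 1 ganglion library or without progenitor replicate 1, 2 or 4 (0.87 to 1.03 over all single-library fits).

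Among transducin genes the subunits also differed. The cone gamma subunit gene gngt2a (GNGT2 in the names table) was on, at 86.4, 120.7, 130.4, 202.2 and 167.6 CPM in photoreceptors. It was 1.73 to 18.7 CPM in ganglion cells and 0 to 11.8 CPM in amacrine/horizontal cells, and among progenitors only replicate 2 had it, at 1.21 CPM. The log2 difference was 9.08 against progenitors (SE 1.5, adjusted p 0.000704), 4.19 against amacrine/horizontal cells (SE 1.19, adjusted p 0.0329) and 4.11 against ganglion cells (SE 1.19, adjusted p 0.0842; edgeR). The amacrine/horizontal difference missed the threshold without photoreceptor replicate 2, 3, 4 or 5 or amacrine/horizontal replicate 2, 3, 4 or 5 (3.87 to 4.41 over all single-library fits), and the ganglion difference passed it by DESeq2, by limma voom, in the fit of only the groups compared, in a fit blocked on the replicate number (4.80), without amacrine/horizontal replicate 1 and without progenitor replicate 2. Without progenitor replicate 2, no progenitor library had a count of gngt2a.

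The beta subunit genes gnb1a and gnb1b, which serve many G proteins, were on in all groups. In photoreceptors gnb1b averaged 409 ± 66.4 CPM, against 512 ± 153 CPM in ganglion cells, 579 ± 92.3 CPM in amacrine/horizontal cells and 398 ± 34.9 CPM in progenitors (SD, n = 5 each), with no difference past the threshold by edgeR. The rod alpha subunit gene gnat1, named after its values were seen, had 0, 336, 143, 193 and 92 counts in photoreceptors, which averaged 5.53 ± 4.1 CPM, and at most 2 counts in any other library. Rod alpha transcript was thus counted in 4 of 5 photoreceptor libraries in which its cone counterpart gnat2 had at most 1 count.

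Transcripts of the opsin genes matched averaged at most 2.27 CPM in any group. Of the 8 opsin genes matched, only opn1sw2 passed the filter and was tested, 5 were off in photoreceptors, and opn1mw2 and opn1mw3 had no count in any library. The blue cone opsin opn1sw2 averaged 1.17 ± 0.898 CPM in photoreceptors, against 1.81 ± 1.17 CPM in ganglion cells, 1.2 ± 1.97 CPM in amacrine/horizontal cells and 2.27 ± 2.87 CPM in progenitors (SD, n = 5 each), and no difference passed the threshold by edgeR. The red cone opsins opn1lw1 and opn1lw2 averaged 0.272 and 0.489 CPM in photoreceptors, each from counts above 3 in 1 or 2 libraries. In progenitors they averaged 0.428 and 0.166 CPM, with 54 counts of opn1lw1 in replicate 5 and 20 counts of opn1lw2 in replicate 1. These traces were therefore not limited to photoreceptors. Rhodopsin was not analysed here, because its symbol matched several genes.

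**Figure D4:**
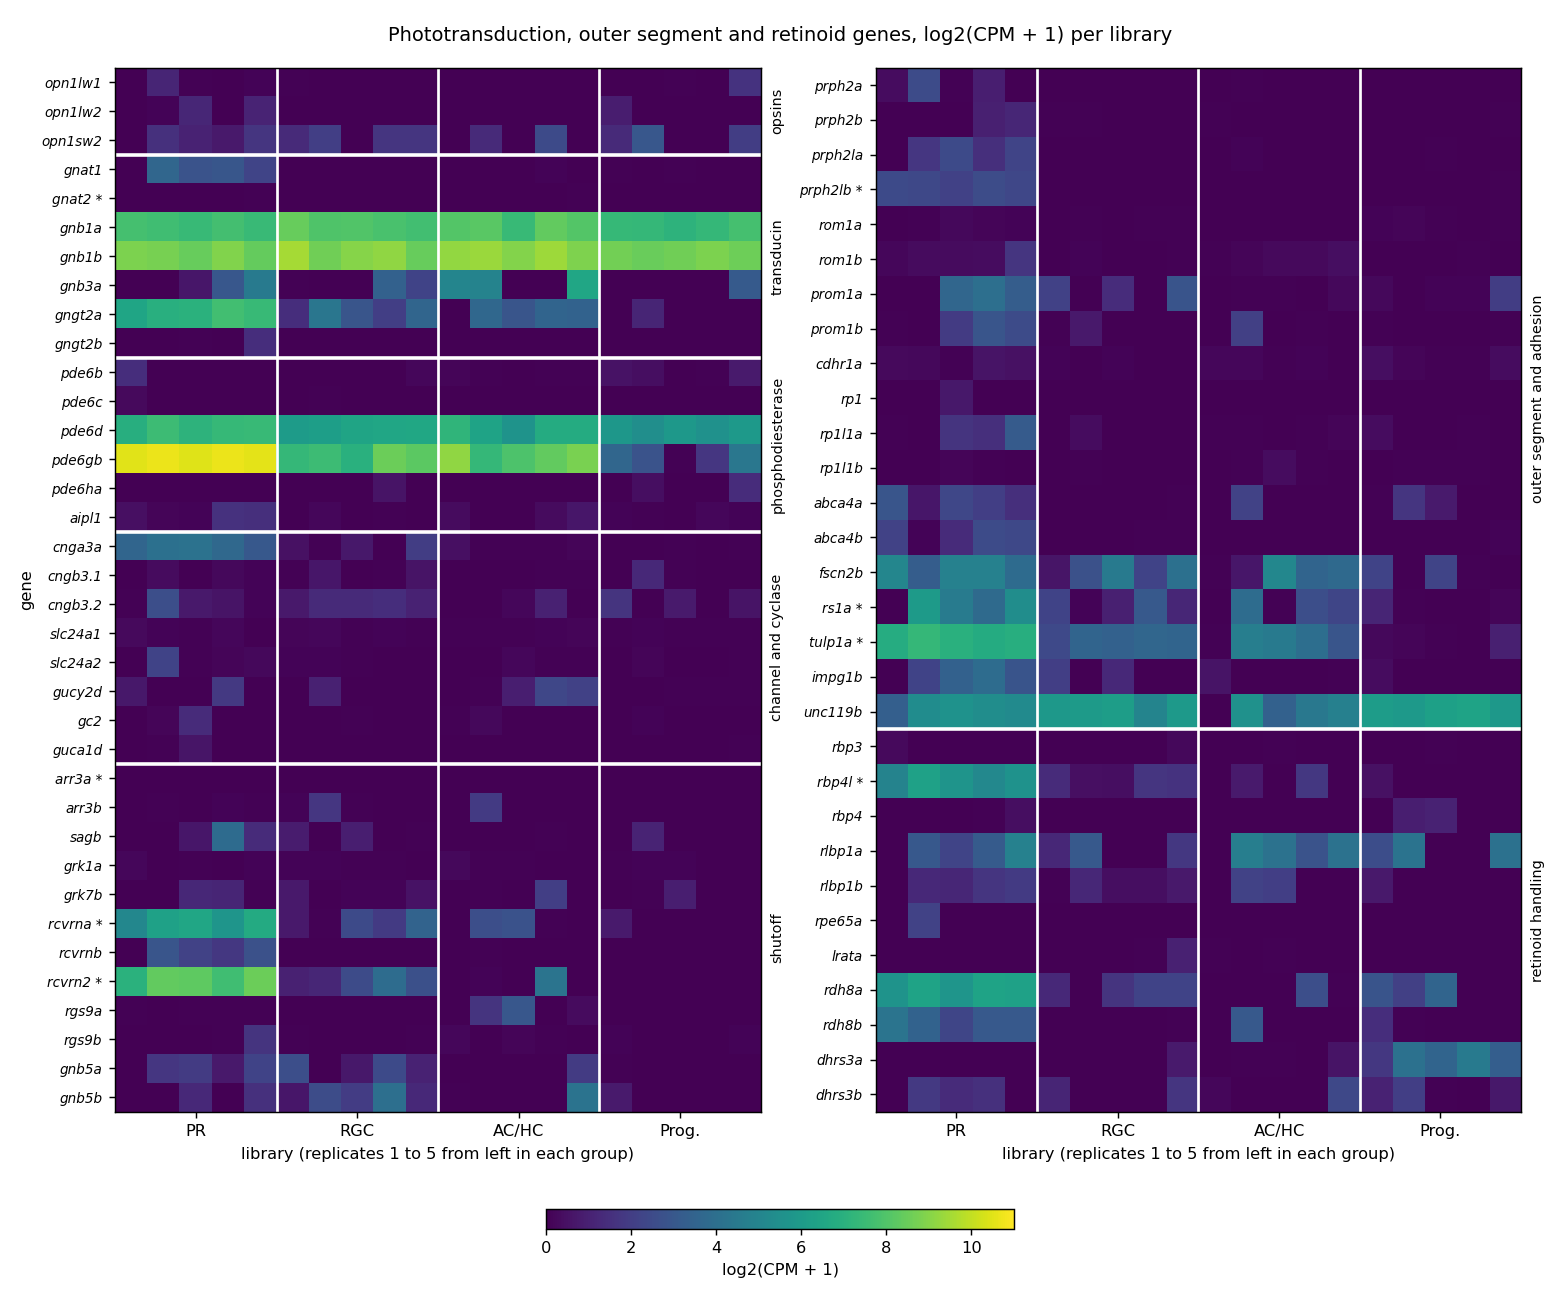
log2(CPM + 1) per library of 66 genes by role: the 8 genes (asterisks) and the list genes with more than 3 counts in at least 1 library (PR, photoreceptors; RGC, retinal ganglion cells; AC/HC, amacrine/horizontal cells; Prog., progenitors; replicates 1 to 5 from left). The rows at 3 or more on this scale in all 5 photoreceptor libraries are those of the genes that were on there, and gnb1a, gnb1b and pde6d are also above 3 in every other library. The rows of opsins and peripherins stay below 3 in every library, with prph2lb lit in all 5 photoreceptor libraries and opn1sw2 lit in libraries of every group. Most rows of channels and cyclases are dark or lit in a few libraries.

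Of the channel and cyclase genes, cnga3a was on. It encodes the alpha subunit of the cone cyclic nucleotide-gated channel and had 10.9, 15.7, 16.7, 12.3 and 7.09 CPM in photoreceptors. It was at most 3.02 CPM in ganglion cells, 0.382 CPM in amacrine/horizontal cells and 0.0417 CPM in progenitors. Photoreceptors lay above all other libraries, with log2 differences of 6.59 against amacrine/horizontal cells (SE 1.53, adjusted p 0.00988), 9.24 against progenitors (SE 1.72, adjusted p 0.00214; a size that depends on the prior count, since no progenitor library was above the floor) and 3.92 against ganglion cells (SE 1.34, adjusted p 0.169; edgeR). The last passed the threshold by DESeq2 and by limma voom, and it ran to 5.50 when ganglion replicate 5 was left out, which had 82 counts. Of the 15 genes of this role, 7 were off in photoreceptors and 7 lay in between.

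None of the 14 further shutoff genes was on. The third recoverin detected, rcvrnb, had 0, 191, 83, 70 and 137 counts in photoreceptors and at most 1 count elsewhere, an average of 3.59 ± 2.58 CPM in photoreceptors (SD, n = 5). The rod arrestin gene sagb averaged 3.06 ± 5.69 CPM there, with 385 of its counts in replicate 4. The peripherin-like gene prph2la, named after its values were seen, had 0, 70, 109, 52 and 92 counts in photoreceptors and at most 2 elsewhere. Of the 90 genes, the 8 included, 9 had no count in photoreceptor replicate 1 and 20 or more counts in each of the other 4 libraries: opn1sw2, gnat1, rcvrnb, gnb5a, prph2la, rs1a, impg1b, rlbp1a and rlbp1b. Over the 82 list genes, those with more than 3 counts numbered 20 in photoreceptor replicate 1 and 28 to 36 in the others, 15 to 24 in ganglion libraries, 9 to 18 in amacrine/horizontal libraries and 6 to 21 in progenitor libraries. List genes with any count numbered 29 in photoreceptor replicate 1 and 43 to 50 in the others, which put replicate 1 within the range of the other groups. They numbered 24 to 37 in ganglion, 29 to 37 in amacrine/horizontal and 19 to 35 in progenitor libraries. Over the whole table, genes with any count numbered 14070 to 17926 in photoreceptor and 14604 to 17441 in ganglion libraries. They numbered 12531 to 16096 in amacrine/horizontal and 13604 to 17707 in progenitor libraries. The part of overall detection in the list counts was not tested. A total of 14 list genes had more than 3 counts in at least 1 photoreceptor library and in no other library, out of 58 with more than 3 counts in any library. Of the 21526 genes of the whole table with more than 3 counts in any library, 4.42% had this pattern, and it can rest on a single photoreceptor library.

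Further outer segment genes were unc119b, whose product binds lipid-modified transducin, and fscn2b, which encodes an actin bundler, both on in photoreceptors. Their averages there were 34.9 ± 14.8 CPM and 21.9 ± 10.3 CPM (SD, n = 5 for each group here). The mean of unc119b was 55.9 ± 14.7 CPM in ganglion cells, 20.7 ± 17.86 CPM in amacrine/horizontal cells and highest in progenitors, at 68.25 ± 10.82 CPM. That of fscn2b was 9.44 ± 8.87 CPM in ganglion cells, 11.49 ± 13.61 CPM in amacrine/horizontal cells and 1.496 ± 2.029 CPM in progenitors. Amacrine/horizontal replicate 3 had 33.6 CPM of fscn2b, above every photoreceptor library (8.577 to 32.36 CPM). Neither gene passed the threshold in any comparison by edgeR, while DESeq2 and limma voom called fscn2b higher against progenitors. The disc and matrix genes prom1a and impg1b averaged 7.02 ± 6.89 CPM and 6.60 ± 5.26 CPM in photoreceptors, and neither was in every library. The genes fscn2a and impg2a had no count in any library.

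In retinoid handling, rdh8a was on. Its product reduces all-trans-retinal in the outer segment. The gene had 49.6, 82.0, 51.9, 81.6 and 76.7 CPM in photoreceptors, against 0 to 3.57 CPM in ganglion cells, 0 to 5.22 CPM in amacrine/horizontal cells and 0 to 10.8 CPM in progenitors. Although no library of another group reached the photoreceptor range, the differences did not pass the threshold by edgeR (log2 5.00, 6.01 and 4.07 against ganglion cells, amacrine/horizontal cells and progenitors, with adjusted p 0.198, 0.0505 and 0.215; edgeR). By limma voom rdh8a passed against all 3 groups. It also passed against amacrine/horizontal cells by DESeq2, with the replicate block and without ganglion replicate 2, amacrine/horizontal replicate 4 or progenitor replicate 4 or 5, and against ganglion cells and progenitors in fits of only the groups compared. Its paralog rdh8b averaged 9.28 ± 5.23 CPM in photoreceptors. The 1 list gene that was lower in photoreceptors than in progenitors was dhrs3a, another retinal reductase gene, with 0 counts in all 5 photoreceptor libraries and 2.49, 16.4, 10.8, 21.7 and 8.90 CPM in progenitors. With 3 counts in the shallowest photoreceptor library as the floor of 0.149 CPM, the photoreceptor level lay under the lowest progenitor library (fitted log2 difference -11.25, adjusted p 0.0101, edgeR; the fitted size depends on the prior count).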

How the data were processed

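Polyadenylated RNA was measured in 20 libraries from sorted retinal cells, in 4 groups of 5 taken from the sample labels. The authors deposited raw read counts per gene, counted by featureCounts 1.6.3 over Ensembl 95 exons, per the file headers. They aligned reads to GRCz11 with GSNAP, per the submitters' processing notes. The headers show that strand was ignored, a mapping quality of 1 was required, and multi-mapping reads and reads over more than 1 gene were dropped, so paralogs and overlapping genes can be counted too low. Exon lengths and coordinates come from the deposited table. Spike-in rows (92) stayed out of totals and tests.

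Counts were tested in edgeR 4.0.16 (R 4.3.3): filterByExpr by group kept 13838 genes, TMM factors scaled totals of 21.2 to 30.8 M, and glmQLFit with glmQLFTest (2-sided, 1 mean per group, all libraries) gave Benjamini-Hochberg adjusted p-values, with a threshold of 0.05. Each standard error (SE) is the log2 difference over the root of its F statistic. Means and ratios of levels were taken from CPM. The code of the fit was run on simulated counts in which 200 genes were changed and every gene had the same dispersion. Real genes differed in their spread between libraries, so nothing about the calls is concluded from that run. DESeq2 1.42.0 and limma 3.58.1 were alternatives. Nothing states that the pools of a group came from separate clutches, so p-values measure the spread between these libraries, and intervals and floors cover counting error alone. The floor for a gene without counts was 3 counts.

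The 8 genes and all lists were chosen with earlier results of these data known. Of 108 list symbols 90 were matched by symbol, by symbol in capitals or by that without its paralog suffix, with the chromosome given by RefSeq for GRCz12tu as a check; the other symbols were not analysed here. Genes named from the list are those past the threshold against all 3 groups, up to 4 per role with the highest photoreceptor mean, and those without a count. Beside them stand, per gene of the 8 that was on, the 3 most correlated genes that had a symbol, with the 8 left out. Any others named were chosen after their values were seen, among them dhrs3a, pde6c, gnat1, prph2la, arr3b and rgs9a. Sequences were not used here.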

Additional observations from a re-analysis of the deposited data

Results flagged for a closer look

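Within groups of 5 libraries, a library was picked out when its gap to the nearest other, divided by the range of the group, exceeded Dixon's critical value of 0.71. For normally distributed values this flags about 1 in 20 groups. Levels near 0 are not so distributed, and a tested group with a single library above 0 is always flagged. Of the 38 groups tested, 11 were picked out, which is therefore not set against that rate. Progenitor replicate 1 was the high library for 3 of the 8 genes, at 0.746 CPM of rcvrna, 1.202 CPM of rs1a and 0.4145 CPM of rbp4l, while tulp1a was highest in progenitor replicate 5, at 0.9322 CPM. Amacrine/horizontal replicate 4 had 17.87 CPM of rcvrn2, and ganglion replicate 1 had 4.308 CPM of tulp1a, below the 9.60 to 11.4 CPM of the other 4.

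Among list genes, gngt2a reached 1.211 CPM in progenitor replicate 2. The channel gene cnga3a reached 3.022 CPM in ganglion replicate 5 and 0.3823 CPM in amacrine/horizontal replicate 1, and dhrs3a reached 0.737 CPM in ganglion replicate 5 and 0.4827 CPM in amacrine/horizontal replicate 5. Outside the genes, spike-in sequences had up to 6 counts in a library (amacrine/horizontal replicate 1), and 4 libraries had more than 3.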

How the results depend on the processing

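The number of the 8 genes on in photoreceptors, 4, ran from 3 to 5 over 10 alternatives. The log2 differences of the 6 that could be fitted, 18 in all, kept their sign in 28 alternatives each, which gave 504 values. Of these 504 values, 47 moved by more than the SD of log2(CPM + 1) over the photoreceptor libraries. Since the 8 genes were picked on these levels, the kept sign is a description and no support. Counts of list genes higher in photoreceptors moved. Against ganglion cells, 2 became 6 by DESeq2, 7 by limma voom, 6 in fits with only the groups compared, 1 with a log2 minimum of 1, and 0 to 8 without single libraries. An unchanged count could hide other genes. In the main fit the 2 were pde6d and pde6gb, and without ganglion replicate 2, 3 or 5 the 2 were gnat1 and prph2la. The filter of the main fit had left out gnat1 and prph2la. Against amacrine/horizontal cells, 3 became 5 without a filter, 7 by DESeq2, 8 by voom, 5 with the replicate block and 1 to 8 without single libraries. Against progenitors, 4 became 8 by DESeq2 and by voom, and 4 to 9 without single libraries. Against all 3 groups, 1 became 2 with library totals, 4 by DESeq2, 6 by voom, 2 with only the groups compared, 2 with the replicate block, 0 with the range of track numbers as a covariate, and 0 to 7 without single libraries. Fits without a library tested 14313 to 14567 genes and 26 to 30 list genes, against 13838 and 26, since the filter asks for fewer libraries when the smallest group shrinks; further causes were not tested. The log2 difference of dhrs3a against ganglion cells, -4.95, was -5.26 to 0.0 without single libraries, at 0.0 without ganglion replicate 5, which held all its counts in that group. The labels do not say whether a replicate number marks a shared pool, and the main fit did not pair libraries. In deviations from their group means, same-numbered libraries of different groups correlated at -0.072 to 0.15 (median 0.028). Others correlated at -0.094 to 0.087 (median -0.006). Correlations this weak cannot settle whether the libraries are paired. Whole-table counts moved too, from 116 to between 78 and 441 against ganglion cells, from 660 to between 289 and 1517 against amacrine/horizontal cells, and from 434 to between 331 and 830 against progenitors. By counting error alone, the off calls are limited to about 0.149 CPM per photoreceptor library, and no other error is covered. The gene rs1a had 0 counts in photoreceptor replicate 1 and 12.9 to 63.1 CPM in the other photoreceptor libraries.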

Other observations

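The phototransduction list genes arr3b, rgs9a and gnb3a had their highest mean level in amacrine/horizontal cells, and they and rlbp1a were picked after their values were seen. The cone arrestin gene arr3b, a paralog of arr3a, had at most 2 counts in any photoreceptor library, against 66 counts in ganglion replicate 2 and 75 in amacrine/horizontal replicate 2. The gene of the RGS protein that switches transducin off, rgs9a, had at most 1 count in any photoreceptor library, against 62, 138 and 6 counts in amacrine/horizontal replicates 2, 3 and 5. The beta subunit gene gnb3a averaged 5.90 ± 9.48 CPM in photoreceptors, against 2.69 ± 4.24 CPM in ganglion cells, 30.3 ± 37.2 CPM in amacrine/horizontal cells and 1.52 ± 3.41 CPM in progenitors (SD, n = 5 each), and no difference passed the threshold by edgeR. The groups overlapped in the retinaldehyde-binding protein gene rlbp1a, which had 0 to 27.6 CPM in photoreceptors, 0 to 7.32 CPM in ganglion cells, 0 to 25.0 CPM in amacrine/horizontal cells and 0 to 17.3 CPM in progenitors.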
